A study of Mus musculus with 9 samples.

Results

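The 9 genes described here encode parts of the route by which interferons act on a cell: the receptor chains Ifnar1, Ifnar2, Ifngr1 and Ifngr2, the kinases Jak1 and Tyk2, the transcription factor subunits Stat2 and Irf9, and the feedback inhibitor Socs1. They were chosen by name from an earlier reading of these same data, in which all 3 comparisons of the study were known, so their differences between groups are given as a description, without p-values. They are 9 of 55421 genes with a row in the deposited table and 9 of the 15711 genes that passed the filter on low counts. All libraries were made from ribosomal RNA depleted total RNA of CD8+ T cells taken from the spleen of the Pmel Ly5.1 cross, whose T cells express a transgenic T-cell receptor, and no age is given in the labels. The MitoPositive group was T cells that had spent 36 h with DM5 cells and sorted as DsRed+, the MitoNegative group was T cells from such co-cultures that sorted as DsRed-, and the monoculture group was control T cells kept without DM5. DM5 is 1 immortalised line of bone marrow mesenchymal stromal cells of BL6 origin, and DsRed, a red fluorescent protein, labelled its mitochondria. The comparison of the sorted groups asks how T cells that took up labelled mitochondria differ from their neighbours, and the other comparisons set co-cultured cells against cells kept alone. The co-cultured cells were sorted, and the labels do not say whether monoculture cells were, so in each comparison with monoculture co-culture and any effect of sorting cannot be told apart. All 9 sample titles also carry the mark 0hr, whose meaning beside the 36 h of co-culture the labels do not explain.

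Type I interferons bind a receptor of Ifnar1 and Ifnar2, whose bound kinases Tyk2 and Jak1 phosphorylate Stat2 and other STAT proteins. With Irf9 these form ISGF3, a factor that binds the interferon-stimulated response element (ISRE) of antiviral genes. Interferon gamma binds Ifngr1 and Ifngr2, whose kinases Jak1 and Jak2 lead to the binding of STAT pairs at gamma-activated sequences (GAS). Socs1 is induced by this signalling and inhibits the Janus kinases, and in CD8+ T cells it restrains responses to interferon gamma and to common gamma chain cytokines.

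Each group had 3 libraries, lettered B, C and D, with total counts of 53546152 to 74722832. The labels do not say whether letters were separate mice or cultures, so errors and p-values cover the spread among these libraries alone, and that spread may be technical. Markers of CD8+ T cells were present in every library, with a summed level over 10 genes of 8768 to 9177 CPM in MitoPositive, 8536 to 8859 CPM in MitoNegative and 9223 to 10580 CPM in monoculture (CPM is the count scaled to 1000000 of the normalised library size). Summed markers of CD8+ T cells, stromal cells, B cells and dendritic or class II cells differed between co-culture and monoculture. The sums of myeloid and CD4 T-cell markers overlapped between all groups. Of the 10 CD8+ markers 6 were called lower (defined below) in MitoPositive than in monoculture and 7 in MitoNegative. Their median log2 differences were -0.25 and -0.31, and 19.9% and 18.3% of all genes were called lower. Myeloid markers summed to 6.46 to 7.91 CPM in MitoPositive, 5.46 to 9.07 CPM in MitoNegative and 4.80 to 6.52 CPM in monoculture. Cd68 was the largest part, with means of 6.03, 5.84 and 2.72 CPM in these groups. Against monoculture, 2 of the 7 tested myeloid markers were called higher and 3 lower in MitoPositive. In MitoNegative 1 was called higher and 2 lower. Of all genes 42.2% and 38.9% were called in these comparisons. Summed natural killer markers were lowest in MitoPositive (14.7 to 17.2 CPM), and MitoNegative (17.5 to 24.45 CPM) overlapped monoculture (19.2 to 29.76 CPM). Most of these sums came from Eomes and Gzma. The Eomes means were 7.60, 10.3 and 15.9 CPM in MitoPositive, MitoNegative and monoculture. Gzma ran the other way, with means of 6.81, 6.30 and 4.12 CPM. All 14 stromal markers had counts. They summed to 14.5 to 37.9 CPM in MitoPositive and 14.6 to 38.5 CPM in MitoNegative, against 5.95 to 7.28 CPM in monoculture. In monoculture 8 of them, including Col1a2 and Col3a1, were at 0, and most of the sum came from Thbs1. Its mean was 5.63 CPM in monoculture, 4.515 CPM in MitoPositive and 4.507 CPM in MitoNegative. The 8 B-cell markers summed to 277 to 308 CPM in MitoPositive, 366 to 460 CPM in MitoNegative and 681 to 753 CPM in monoculture, most of it from Ighm. These sums did not overlap between the sorted groups either. Ighm was called lower in MitoPositive than in MitoNegative (log2 -0.52 ± 0.085), and the other 7 were not called there. The 6 dendritic and class II markers with counts summed to 56.6 to 83.2 CPM in MitoPositive and 52.4 to 80.1 CPM in MitoNegative, against 122.8 to 186.7 CPM in monoculture. The part of these cells in the results below was not tested. In bulk RNA, fewer cells of a type and less RNA per cell cannot be told apart.

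The receptor chains Ifnar2, Ifnar1 and Ifngr2 lie in that order on the plus strand of chromosome 16 (GRCm38, chr16:91372783-91405589, chr16:91485238-91507441 and chr16:91547072-91565623), while Ifngr1 lies on chromosome 10 at chr10:19591949-19610229. Stat2 lies at chr10:128270559-128292849, Irf9 at chr14:55603571-55610030, Jak1 at chr4:101152367-101265282, Tyk2 at chr9:21104068-21131243 and Socs1 at chr16:10782240-10785536. The 250 bases before the RefSeq start of each gene (GRCm38.p6; all 9 genes matched, Irf9 with 2 starts) were searched on both strands for the ISRE core (TTTC, any 2 bases, TTTC) and for the GAS letters TTCNNNGAA. The ISRE core was in 978 of 32851 promoters (2.98%) and the GAS letters in 2306 (7.02%). Among the 9 genes the ISRE core was found at Stat2 and at Socs1, and the GAS letters at Ifnar2. The other 6 had neither in this window. For Irf9 both windows lie inside the gene span given above, so the bases before that span were not searched. The 3 promoters with a match are shown 5′ to 3′ on the strand of the gene, with the matches in capitals, because they are the members that hold one of these motifs.
Ifnar2 (GRCm38.p6, chr16:91372533-91372782, plus strand): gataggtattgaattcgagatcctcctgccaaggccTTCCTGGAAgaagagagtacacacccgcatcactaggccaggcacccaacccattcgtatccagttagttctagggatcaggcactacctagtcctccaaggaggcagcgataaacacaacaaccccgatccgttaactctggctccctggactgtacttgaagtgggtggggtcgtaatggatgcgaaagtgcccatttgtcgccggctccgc
Stat2 (GRCm38.p6, chr10:128270248-128270497, plus strand): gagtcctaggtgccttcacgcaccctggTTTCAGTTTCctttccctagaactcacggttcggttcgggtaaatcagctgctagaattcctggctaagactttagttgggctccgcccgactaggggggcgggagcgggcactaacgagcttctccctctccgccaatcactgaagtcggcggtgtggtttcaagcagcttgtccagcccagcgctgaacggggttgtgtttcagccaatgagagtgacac
Socs1 (GRCm38.p6, chr16:10785537-10785786, minus strand): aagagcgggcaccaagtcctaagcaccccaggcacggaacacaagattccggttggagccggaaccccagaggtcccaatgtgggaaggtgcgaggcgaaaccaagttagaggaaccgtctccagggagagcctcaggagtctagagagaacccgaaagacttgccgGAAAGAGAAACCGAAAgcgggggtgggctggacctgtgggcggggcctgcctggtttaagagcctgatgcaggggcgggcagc
The match at Ifnar2 lies 206 to 214 bases before the start and that at Stat2 213 to 222. Socs1 has 2 overlapping matches on the opposite strand, at 68 to 77 and 74 to 83 bases before the start. Of 18 genes of the ISGF3 list used below that had a promoter in the table, 8 held the ISRE core and 3 the GAS letters. A match describes the letters and not a bound site.

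The chains of the type I interferon receptor stood lowest in MitoPositive cells. Ifnar2, the chain that carries the main STAT docking part of the receptor, had 96.0, 92.9 and 94.1 CPM in MitoPositive B, C and D, 118.8, 120.5 and 112.9 CPM in MitoNegative and 150.9, 142.2 and 147.7 CPM in monoculture. The groups did not overlap, and each step was wider than the spread within any group. Means were 94.3 ± 1.6 CPM in MitoPositive, 117.4 ± 3.98 CPM in MitoNegative and 146.9 ± 4.40 CPM in monoculture, each with the SD of n = 3. The log2 difference was -0.32 ± 0.052 (SE) for MitoPositive minus MitoNegative, -0.64 ± 0.052 for MitoPositive minus monoculture (1.56-fold lower) and -0.32 ± 0.052 for MitoNegative minus monoculture. Ifnar2 was called in all 3, where called means an adjusted p under 0.05 over all 15711 genes in edgeR's quasi-likelihood test. Unless a block is named, that test had no term for the replicate letter. Between the sorted groups the call ended when any 1 of the 6 sorted libraries or monoculture C was left out, and with either other scaling of the libraries; the log2 difference stayed between -0.34 and -0.29. Within letters B, C and D it was -0.31, -0.38 and -0.26. The deposited counts are per gene and do not separate the 5 annotated coding transcripts of Ifnar2, and the overlapping gene Gm21970, which shares 315 exon bases with it, had 0 counts.

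Ifnar1, the partner chain, had 236.9, 255.7 and 257.2 CPM in MitoPositive B, C and D, 263.2, 287.8 and 274.1 CPM in MitoNegative and 308.9, 332.9 and 266.3 CPM in monoculture. MitoPositive lay below both other groups, while MitoNegative overlapped monoculture through monoculture D. The log2 difference was -0.14 ± 0.080 for MitoPositive minus MitoNegative and -0.28 ± 0.080 for MitoPositive minus monoculture. It was -0.14 ± 0.080 for MitoNegative minus monoculture. Only the MitoPositive minus monoculture value was called, and that call ended without MitoPositive B (-0.24), without monoculture C (-0.20), without the 3 libraries of letter B (-0.21) or with total counts as the scale (-0.25).

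The chains of the interferon gamma receptor did not follow the type I chains. Ifngr1, which binds the cytokine, had 869.5, 788.8 and 724.1 CPM in MitoPositive B, C and D, 724.5, 652.2 and 660.2 CPM in MitoNegative and 503.2, 535.7 and 464.8 CPM in monoculture. All 6 co-cultured libraries lay above the 3 of monoculture, and the sorted groups overlapped by a narrow margin. Its mean was 794 ± 72.9 CPM in MitoPositive, 679 ± 39.6 CPM in MitoNegative and 501 ± 35.5 CPM in monoculture. The log2 difference was 0.66 ± 0.085 for MitoPositive minus monoculture (1.58-fold) and 0.44 ± 0.085 for MitoNegative minus monoculture (1.36-fold), both called. It was 0.23 ± 0.085 for MitoPositive minus MitoNegative, which was not called, and was positive within each of the 3 letters. Ifngr2, the chain needed for signalling, had 10.2, 9.80 and 15.8 CPM in MitoPositive B, C and D, 10.1, 14.2 and 16.2 CPM in MitoNegative and 10.1, 11.8 and 11.8 CPM in monoculture. Its groups overlapped in all 3 comparisons and none was called, with log2 differences of -0.18 ± 0.207, 0.09 ± 0.208 and 0.26 ± 0.207 for MitoPositive minus MitoNegative, MitoPositive minus monoculture and MitoNegative minus monoculture. Its counts, 525 to 1129 per library, were the lowest of the 9 genes.

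**Figure D1:**
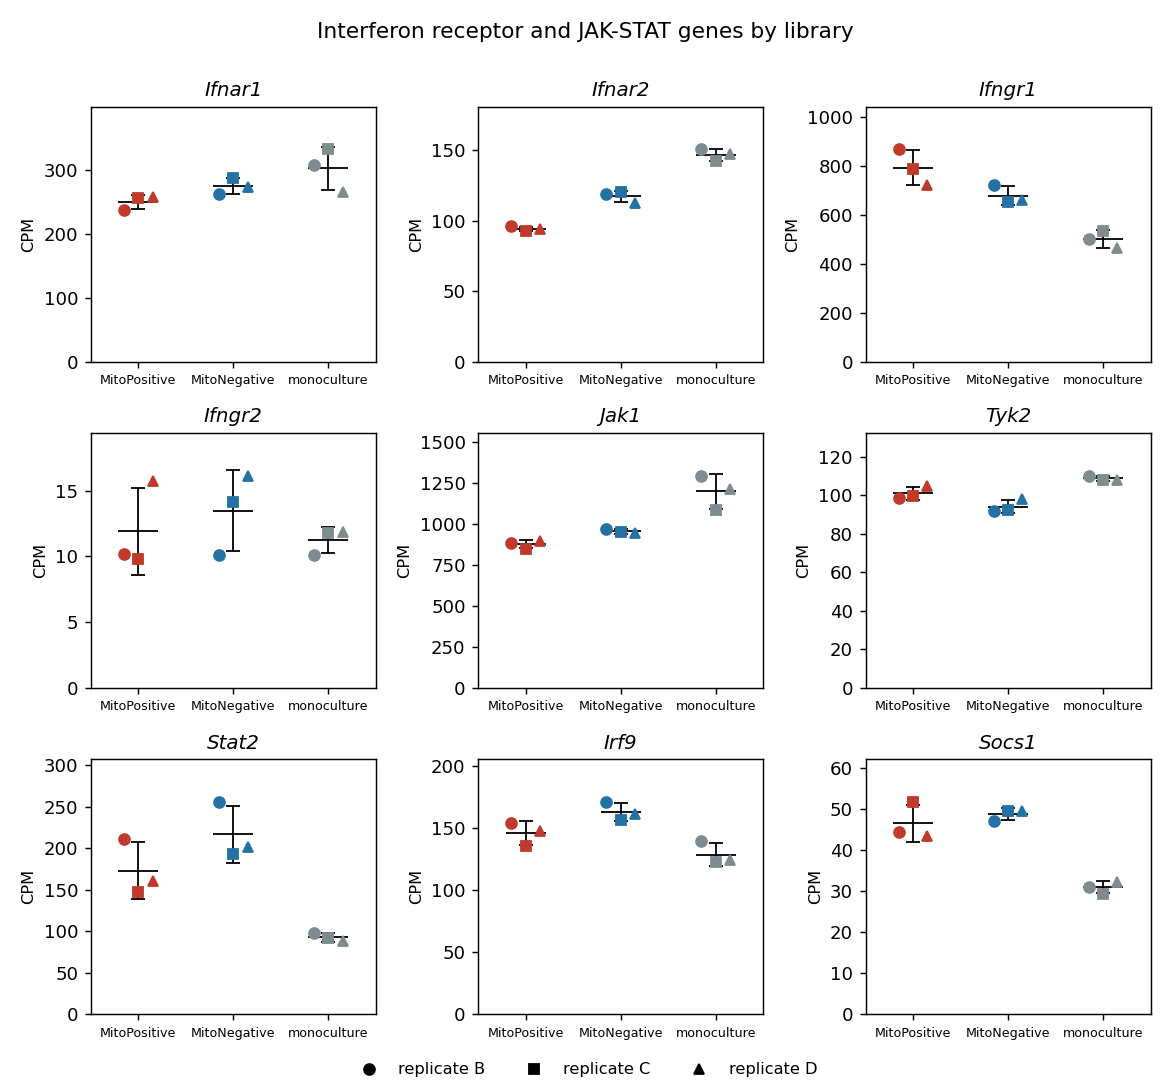
CPM of each of the 9 genes in every library (vertical axis from 0), with MitoPositive, MitoNegative and monoculture from left to right; symbols give the replicate letter, and bars the mean ± SD of 3 libraries. Ifnar2 and Jak1 stand lowest in MitoPositive and highest in monoculture with no overlap, Ifngr1 runs the other way, and Stat2 is higher in all 6 co-cultured libraries than in monoculture.

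The kinases differed from each other. Jak1, which serves both receptors and many cytokine receptors of T cells, had 885.3, 848.8 and 898.5 CPM in MitoPositive B, C and D, 971.7, 949.9 and 943.8 CPM in MitoNegative and 1296, 1087 and 1216 CPM in monoculture. The 3 groups did not overlap. The log2 difference was -0.45 ± 0.076 for MitoPositive minus monoculture and -0.33 ± 0.076 for MitoNegative minus monoculture, both called, and -0.12 ± 0.076 for MitoPositive minus MitoNegative, not called. Without the 3 libraries of letter B, MitoNegative minus monoculture was -0.27 and no longer called. Tyk2, which pairs with Jak1 on the type I receptor, had 98.6, 99.8 and 104.7 CPM in MitoPositive B, C and D, 91.8, 92.4 and 97.9 CPM in MitoNegative and 110.3, 108.2 and 108.1 CPM in monoculture. Its groups did not overlap either, but MitoNegative was the lowest. MitoNegative minus monoculture was -0.21 ± 0.052 and called (-0.18 and not called without letter B). MitoPositive minus monoculture was -0.11 ± 0.052 and MitoPositive minus MitoNegative 0.10 ± 0.052, neither called. Of its exon bases, 554 are shared with 1700084C06Rik on the opposite strand, whose mean was below that of Tyk2 in every group, at 0.434, 0.388 and 0.462 CPM in MitoPositive, MitoNegative and monoculture.

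Both ISGF3 subunits among the 9 genes were highest in MitoNegative cells. Stat2, the ISGF3 subunit with the transactivating part, had 211.5, 146.8 and 160.5 CPM in MitoPositive B, C and D, 256, 193.1 and 201 CPM in MitoNegative and 98.4, 91.4 and 87.8 CPM in monoculture. Every co-cultured library lay above every monoculture library, the sorted groups overlapped, and letter B was the highest in each group. Its mean was 173 ± 34.1 CPM in MitoPositive, 216.7 ± 34.3 CPM in MitoNegative and 92.5 ± 5.41 CPM in monoculture. The log2 difference was 0.90 ± 0.145 for MitoPositive minus monoculture (1.87-fold) and 1.23 ± 0.146 for MitoNegative minus monoculture (2.34-fold), both called and 0.79 and 1.14 without letter B. Between the sorted groups it was -0.32 ± 0.143 and not called; with the letter as a block it was -0.33 ± 0.072 and called. Within letters B, C and D, MitoPositive minus MitoNegative was -0.28, -0.40 and -0.32.

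Irf9, which gives ISGF3 its DNA contact, had 154.4, 135.5 and 147.5 CPM in MitoPositive B, C and D, 171.2, 156.5 and 161.5 CPM in MitoNegative and 139.4, 122.4 and 124.2 CPM in monoculture. MitoNegative lay above both other groups without overlap, and MitoPositive overlapped monoculture. MitoNegative minus monoculture was 0.34 ± 0.070 and called. MitoPositive minus monoculture was 0.18 ± 0.070 and not called, but was called in 5 of 8 other settings, the replicate block among them, and in 3 of 9 fits with 1 library left out. MitoPositive minus MitoNegative was -0.16 ± 0.070 and not called. Irf9 shares 123 exon bases, 2.28% of its exons, with Rnf31 on the same strand, which had 94.2, 100.8 and 85.0 CPM in MitoPositive, MitoNegative and monoculture.

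Socs1 had 44.3, 51.7 and 43.5 CPM in MitoPositive B, C and D, 47.0, 49.6 and 49.6 CPM in MitoNegative and 31.0, 29.3 and 32.2 CPM in monoculture. The sorted groups overlapped, and all 6 co-cultured libraries lay above monoculture. The log2 difference was 0.59 ± 0.072 for MitoPositive minus monoculture (1.51-fold) and 0.66 ± 0.072 for MitoNegative minus monoculture (1.58-fold), both called. It was -0.07 ± 0.071 for MitoPositive minus MitoNegative and not called.

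In counts over the 9 genes, MitoPositive against MitoNegative had 1 called gene, Ifnar2, which was lower; of all tested genes 0.165% were called and 0.0764% were called lower. The groups did not overlap for 5 of the 9 (Ifnar1, Ifnar2, Jak1, Tyk2 and Irf9), as for 20.0% of all genes. With the replicate letter as a block in the fit of all 9 libraries, 2 of the 9 were called, as were 2.34% of all genes. With the block in a fit of the 6 sorted libraries alone, 7 of the 9 were called, beside 18.2% of the 15431 genes tested there. Ifngr1 and Tyk2 were higher, and Ifnar1, Ifnar2, Jak1, Stat2 and Irf9 lower. Each of these 7 had the same sign in all 3 letters, which a fit within letters favours, so it adds no support. MitoPositive against monoculture had 6 called genes, 3 higher and 3 lower; over all genes 42.2% were called, 22.3% higher and 19.9% lower. The groups did not overlap for 7 of 9 genes, all but Ifngr2 and Irf9, and for 51.6% of all genes. MitoNegative against monoculture had 7 called genes, 4 higher and 3 lower; over all genes 38.9% were called, 20.6% higher and 18.3% lower. The groups did not overlap for 7 of 9, all but Ifnar1 and Ifngr2, and for 48.7% of all genes. The median log2 difference over the 9 genes was -0.14, 0.09 and 0.26 for MitoPositive against MitoNegative, MitoPositive against monoculture and MitoNegative against monoculture, beside -0.00038, 0.0034 and 0.0093 over all genes. Since the members were chosen with these contrasts known, nothing is read from the counts, and the comparisons with monoculture share their 3 control libraries.

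**Figure D2:**
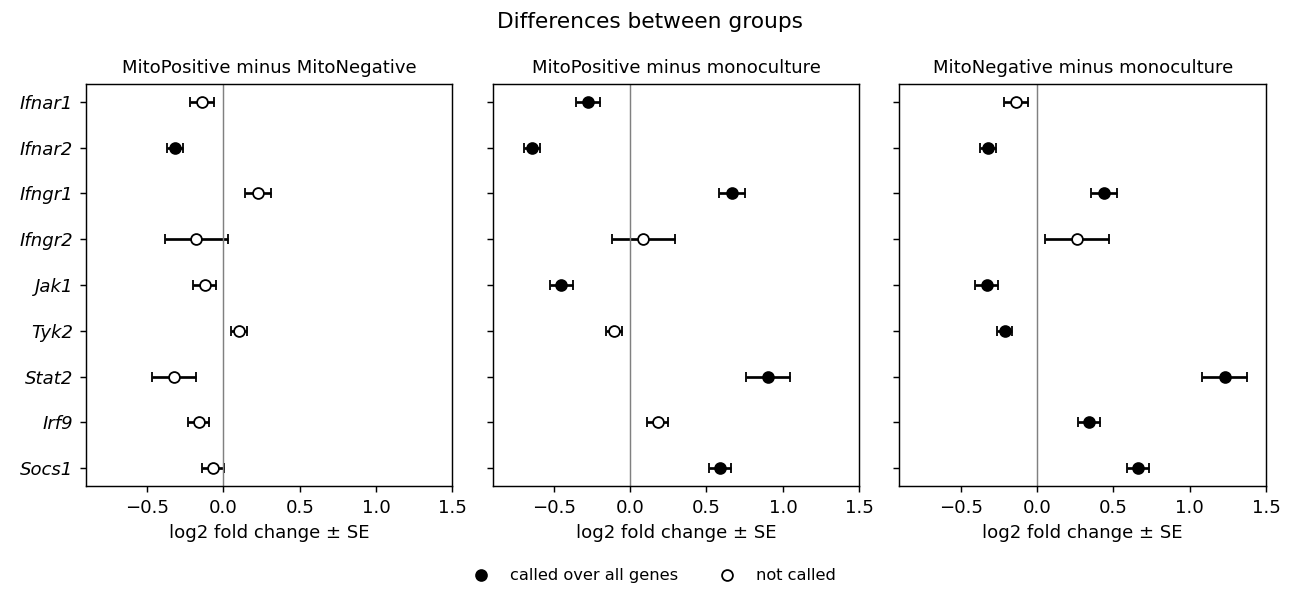
Log2 fold change ± SE (horizontal axis) of each of the 9 genes in the 3 comparisons, with filled points for genes called over all genes. Ifnar2 lies left of 0 in all 3 panels, at -0.32, -0.64 and -0.32, and Stat2 reaches 0.90 and 1.23 against monoculture.

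Levels of different genes were compared per length, as CPM per kb of annotated exon. Exons of all annotated transcripts of a gene were joined for this length, so the order of genes depends on the annotation. In MitoPositive cells Ifngr1 stood highest at 279 CPM per kb, followed by Jak1 at 121 and Ifnar1 at 42.1. Stat2 at 29.2, Ifnar2 at 28.3 and Irf9 at 27.1 CPM per kb overlapped with their neighbours in the order, as did Socs1 at 16.0 and Tyk2 at 14.7, and Ifngr2 was lowest at 3.16. MitoNegative cells had the same order, with Ifngr1 at 238.5 and Ifngr2 at 3.58 CPM per kb, and Stat2 and Ifnar2 were the only neighbours that overlapped. In monoculture Ifngr1 at 176 and Jak1 at 166 CPM per kb overlapped, as did Ifnar1 at 51.0 and Ifnar2 at 44.1. Irf9 followed at 23.9, Tyk2 at 15.9 and Stat2 at 15.6 overlapped, and Socs1 at 10.6 and Ifngr2 at 2.98 came last. Stat2 thus ranked 4 of 9 in both co-cultured groups and 7 of 9 in monoculture.

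Ratios of levels per length show how partners shifted against each other within a library. Ifnar2 over Ifnar1 was 0.675 ± 0.042 in MitoPositive, 0.763 ± 0.038 in MitoNegative and 0.875 ± 0.114 in monoculture, again with the SD over the libraries, and the sorted groups did not overlap. Irf9 over Stat2 was 0.943 ± 0.122 in MitoPositive and 0.837 ± 0.088 in MitoNegative, against 1.53 ± 0.049 in monoculture. Thus the ratio was lower in every co-cultured library than in any of monoculture. Whether it stands for more Irf9 or more Stat2 transcript depends on the exon lengths used, which join all annotated transcripts of a gene. Ifnar1 over Ifngr1 was 0.152 ± 0.020 in MitoPositive, 0.195 ± 0.019 in MitoNegative and 0.289 ± 0.013 in monoculture, with no overlap between any of the groups. Ifngr1 over Ifngr2 was 93.4 ± 28.4 in MitoPositive, 70.0 ± 21.9 in MitoNegative and 59.4 ± 7.09 in monoculture, and these overlapped.

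**Figure D3:**
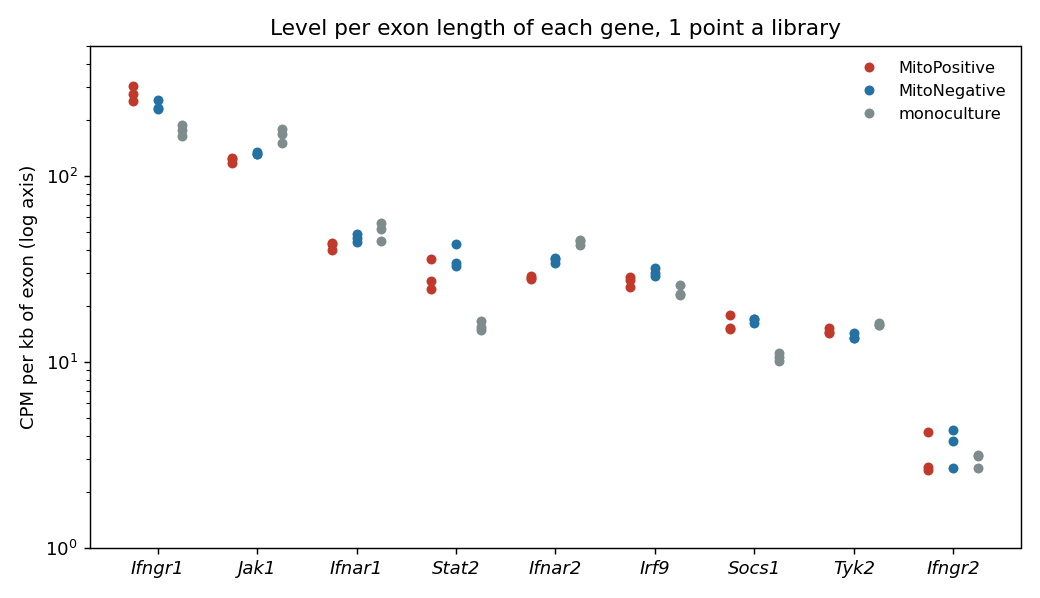
CPM per kb of exon (log axis) of each gene in every library, genes ordered by their mean in MitoPositive, with MitoPositive, MitoNegative and monoculture from left to right within each gene. Ifngr1 and Jak1 stand above the rest in all groups, Ifngr2 lies at the bottom near 3 CPM per kb, and Stat2 shows the widest gap between monoculture and the co-cultured groups.

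The remaining genes of the pathway were read from lists of families and textbook targets, each taken whole and written with earlier results of these data known. Counts of called genes in these lists are descriptions. Of all tested genes 42.2% were called in MitoPositive against monoculture, 38.9% in MitoNegative against monoculture and 0.165% between the sorted groups. Of 21 interferon ligands only Ifng, the gene of interferon gamma, passed the filter on low counts. It had 149, 207 and 70.9 CPM in MitoPositive B, C and D and 72.6, 87.5 and 53.7 CPM in MitoNegative, against 5.23, 3.46 and 3.43 CPM in monoculture. Ifng rose 35.2-fold in MitoPositive (log2 5.14 ± 0.497, adjusted p = 0.000251) and 17.6-fold in MitoNegative (4.14 ± 0.482, adjusted p = 0.000749) relative to monoculture in edgeR's quasi-likelihood test. MitoPositive minus MitoNegative was 0.997 ± 0.402 and missed the threshold (adjusted p = 0.459), with higher values in MitoPositive in 3 of 3 letters.

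Of 8 other class II cytokine receptor genes, 4 were tested. Il10ra, the ligand-binding chain of the interleukin 10 receptor, rose in MitoPositive (log2 1.18 ± 0.178, adjusted p = 0.000822) and MitoNegative (1.02 ± 0.177, adjusted p = 0.00207) relative to monoculture, and Il20rb fell by 0.64 and 0.71. Il10rb, which lies between Ifnar2 and Ifnar1, stood at 63.9 ± 2.7 CPM in MitoPositive, 67.1 ± 2.25 CPM in MitoNegative and 65.0 ± 3.66 CPM in monoculture, and no comparison called it. Of the 10 tested genes within 200 kb of the receptor cluster that are not members, 0 were called between the sorted groups by edgeR, and 2 had an unadjusted p under 0.05. Against monoculture MitoPositive had 1 higher and 3 lower, and MitoNegative 2 higher and 1 lower, beside 42.2% and 38.9% of all genes called. Cryzl1 rose in both (0.35 ± 0.070 and 0.24 ± 0.070), although in MitoNegative not without monoculture B or C (0.21 and 0.20), and A930006K02Rik fell in MitoPositive (-0.88 ± 0.201). The remaining calls, of Son (-0.20 ± 0.072 in each comparison), Tmem50b (-0.24 ± 0.077 in MitoPositive) and Gm49625 (1.39 ± 0.493 in MitoNegative), had adjusted p-values of 0.0256 to 0.0437 in edgeR's test. They were lost in 7 of 9 fits with 1 library left out for Son in each comparison, in 3 of 9 for Tmem50b and in 8 of 9 for Gm49625.

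Of the other Janus kinases, Jak2 was higher in MitoNegative than in monoculture by 0.18 ± 0.065 (adjusted p = 0.0436), a call lost in 3 of 8 other settings and in 6 of 9 fits with 1 library left out, and 0.11 ± 0.065 in MitoPositive minus monoculture missed the threshold (adjusted p = 0.21). Jak3, the kinase of the common gamma chain, was called in neither. MitoPositive minus monoculture was 0.19 ± 0.114 (adjusted p = 0.216), and 0.18 ± 0.057 and called with the replicate block (adjusted p = 0.0225; 0.0438 with the block in a fit of these 2 groups alone). MitoNegative minus monoculture was 0.20 ± 0.114 (adjusted p = 0.19), and 0.20 ± 0.057 and called with the block (adjusted p = 0.0164), but not with the block in the fit of 2 groups (adjusted p = 0.0628). Among other STAT genes, Stat3 rose in MitoPositive and MitoNegative relative to monoculture (0.46 ± 0.069 and 0.50 ± 0.069, adjusted p = 0.000243 and 0.000182), and Stat4, the STAT of interleukin 12 signalling, fell in both (-0.20 ± 0.060 and -0.22 ± 0.060). The Stat4 call was lost without MitoPositive C (-0.18), MitoPositive D (-0.18) or monoculture B (-0.18) in the first comparison and without MitoNegative C (-0.21) or MitoNegative D (-0.19) in the second.

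Of 8 other IRF genes, 3 rose and 1 fell in MitoPositive relative to monoculture, and 2 rose in MitoNegative. Over all genes 42.2% and 38.9% were called in these comparisons, and nothing is read from the IRF counts. Irf7, the factor that amplifies type I interferon responses, had 193, 112 and 104 CPM in MitoPositive B, C and D and 247, 148 and 138 CPM in MitoNegative, against 44.4, 36.6 and 40.4 CPM in monoculture. It rose 3.37-fold in MitoPositive (adjusted p = 0.0042) and 4.39-fold in MitoNegative (adjusted p = 0.0021). Irf4, a factor induced by antigen receptor signals, rose in MitoPositive (0.91 ± 0.187), and Irf5 rose in both groups (0.78 ± 0.089 in MitoPositive and 0.64 ± 0.089 in MitoNegative). Irf1, a factor induced by interferon gamma, was called in no comparison, with means of 307 ± 28.3 CPM in MitoPositive, 366 ± 34.0 CPM in MitoNegative and 317 ± 24.4 CPM in monoculture.

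Of the 7 other SOCS family genes, 3 rose and 1 fell in MitoPositive relative to monoculture, and 5 rose and 1 fell in MitoNegative. These counts stand beside 42.2% and 38.9% of all genes called. Cish, an inhibitor induced by Stat5, had 88.3, 91.3 and 82.8 CPM in MitoPositive B, C and D and 65.5, 66.3 and 73.5 CPM in MitoNegative, against 19.1, 16.1 and 14.8 CPM in monoculture. It rose 5.25-fold in MitoPositive (adjusted p = 1.78e-08) and 4.11-fold in MitoNegative (adjusted p = 7.5e-08). Socs2 rose by 1.65 ± 0.206 on the log2 scale in MitoPositive and 0.66 ± 0.205 in MitoNegative, where the call was lost without MitoNegative D (0.52), monoculture B (0.53) or monoculture D (0.58). Socs3, the inhibitor of Stat3 signalling, rose in MitoNegative relative to monoculture (0.52 ± 0.110, adjusted p = 0.00324), and in MitoPositive the value was 0.10 ± 0.110 (adjusted p = 0.52). Between the sorted groups no gene of this family was called by edgeR without the block (4 had an unadjusted p under 0.05). With the block Socs2 was called higher (0.98 ± 0.181, adjusted p = 0.0239) and Socs3 lower (-0.43 ± 0.095, adjusted p = 0.0483) in MitoPositive. Of 11 other negative regulators, 1 rose and 4 fell in MitoPositive relative to monoculture, and 2 rose and 4 fell in MitoNegative. The same shares of all genes, 42.2% and 38.9%, stand beside these counts. Usp18, which binds Ifnar2 and blocks its kinase, rose 10.1-fold in MitoPositive (adjusted p = 0.00136) and 12.5-fold in MitoNegative (adjusted p = 0.00115). The phosphatase genes Ptpn6 and Ptpn1 fell in both, by 0.68 and 0.38 in MitoPositive and by 0.79 and 0.33 in MitoNegative on the log2 scale.

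Targets of the pathway were read from a list of 25 antiviral genes driven by ISGF3 and a list of 21 genes activated by interferon gamma. In the ISGF3 list 24 genes were called higher in MitoPositive than in monoculture, with a median log2 difference of 2.14 over the 25. In MitoNegative 24 were called higher, with a median of 2.55. Of all genes 22.3% were called higher in MitoPositive and 20.6% in MitoNegative. Ifit2 was higher but not called in either (0.79 ± 0.403 and 1.10 ± 0.404). Its groups did not overlap, and it was called in both with the replicate block. By limma voom 18 and 20 of the 25 were called. Among the largest were Ifi44 (5.04 ± 0.910 in MitoPositive, not called by limma voom, and 5.67 ± 0.913 in MitoNegative) and Mx2, a GTPase that restricts viruses (4.96 ± 0.739 and 5.31 ± 0.743). Between the sorted groups 0 of 25 were called by edgeR, 0 had an unadjusted p under 0.05, and DESeq2 and limma voom called 0; all 25 had a negative value, with a median of -0.31. With the letter as a block in the fit of all 9 libraries 1 was called, Ifi44 (-0.63 ± 0.1), and with the block in a fit of the 6 sorted libraries alone 23 of 25 were called, all lower. Of all genes 2.34% were called in the first of these fits and 18.2% in the second. A fit within letters favours genes with the same sign in all letters, so these counts add no support. Letter B held the highest value of all 25 genes in MitoPositive and of all 25 in MitoNegative, and of 16 of 25 in monoculture, as it did for Stat2. Without the letter B libraries 25 of 25 were called higher in both comparisons with monoculture.

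Of the 21 genes activated by interferon gamma, 13 rose and 1 fell in each of the comparisons with monoculture, with medians of 0.41 in MitoPositive and 0.43 in MitoNegative. Over all genes 22.3% were called higher and 19.9% lower in MitoPositive, and 20.6% higher and 18.3% lower in MitoNegative. Cxcl10, a chemokine, rose by 4.57 ± 0.708 and 4.99 ± 0.713, and Cd274, which encodes PD-L1, by 1.27 ± 0.102 and 1.34 ± 0.103. Ciita, the master factor of class II antigen presentation, fell by 1.62 and 1.86; beside it, 6 of the 8 B-cell markers were called lower in each comparison, as were 3 of the 6 dendritic and class II markers in MitoPositive and 4 of the 6 in MitoNegative, and their part in the Ciita values was not tested. Between the sorted groups 0 of 21 were called by edgeR, DESeq2 or limma voom, and 0 had an unadjusted p under 0.05. With the block 1 was called lower (6 in the fit of the 6 sorted libraries alone), beside 2.34% and 18.2% of all genes called. The stromal markers were called higher in both comparisons with monoculture for 10 of 12 tested, and their part in these list counts was not tested.

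**Figure D4:**
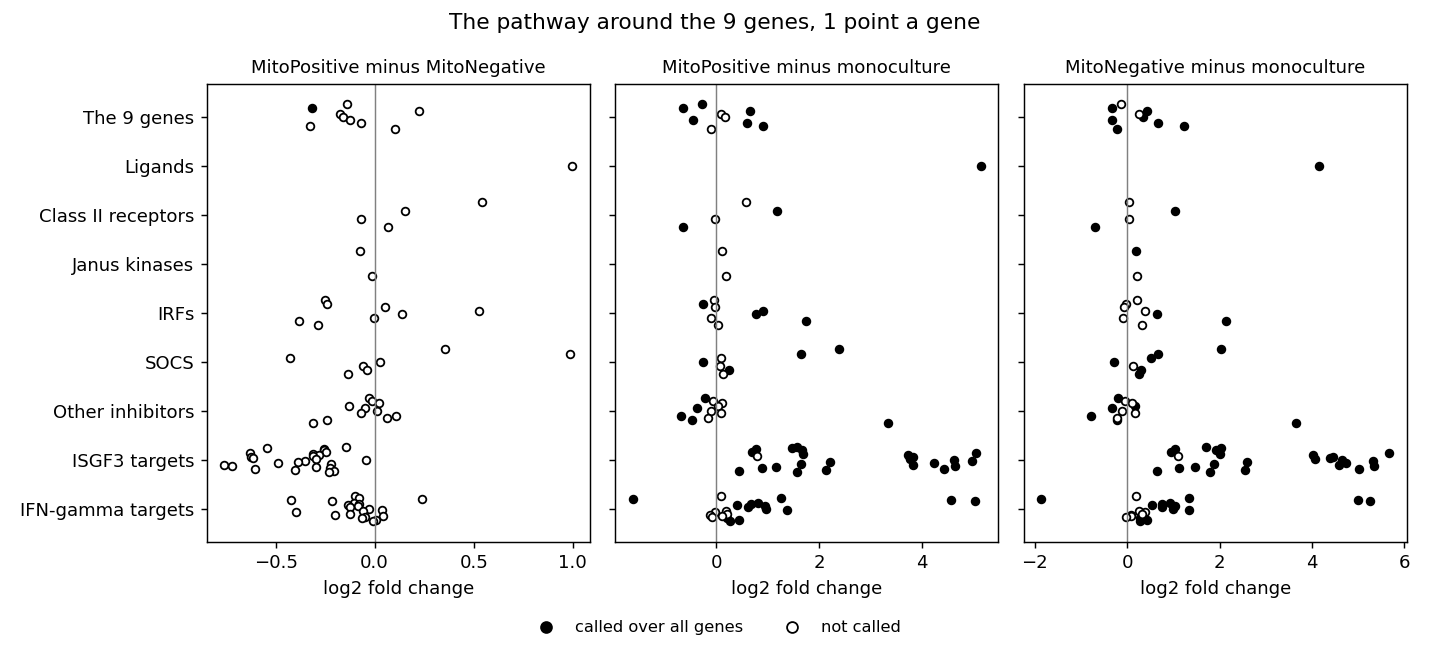
Log2 fold change (horizontal axis, own range in each panel) of tested genes by list in the 3 comparisons, with filled points for genes called over all genes. The ISGF3 targets lie right of 0 in both comparisons with monoculture, with medians of 2.14 and 2.55, and left of 0 between the sorted groups, where none is filled.

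For each of the 9 genes the gene with the most similar profile was found among 10608 tested genes with a mean log2 CPM of at least 1, by the root mean square difference of log2 CPM over the 9 libraries after centring each gene on its mean. For Stat2, whose values span 1.54 log2 units, it was Trafd1, with a difference of 0.0875. For Ifnar2, which spans 0.70, it was Hyls1 at 0.0428, and for Ifngr1, which spans 0.90, it was Akap1 at 0.0442. Jak1 was nearest to Oxr1 at 0.0283, Tyk2 to Cul4a at 0.0261, Ifnar1 to Sf3b1 at 0.0509 and Irf9 to Herpud2 at 0.0436. Socs1 was nearest to Mif4gd at 0.0679 and Ifngr2 to Slco4a1 at 0.126, the largest distance of the 9. None of these 9 nearest genes was in the pathway lists. The lists are a selection, so absence from them does not place a gene outside the interferon response. Among the 3 nearest of each, 1 was, Parp9 of the ISGF3 list, which ranked 3 for Stat2 at 0.0964.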

How the data were processed

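RNA sequencing of 9 libraries was analysed, 3 each of MitoPositive, MitoNegative and monoculture CD8+ T cells. The authors deposited raw counts per gene for 55520 entries, of which 99 were spike-in entries with 0 counts; the values are not normalised. Tools listed in the submitters' processing notes are STAR 2.7, featureCounts, bcl2fastq, cutadapt and DESeq2, with the build GRCm38. Annotation release and counting strand are not given in the sources used here; reads shared by a gene and an antisense neighbour cannot be separated. Gene spans and exon lengths came from the deposited annotation, and those of the 9 genes equal GENCODE M21.

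The analysis used edgeR 4.0.16 in R 4.3.3. Low genes were filtered (filterByExpr, count of at least 10, total of at least 15); 15711 genes remained and held 99.96% or more of each library. Library scaling used the trimmed mean of M-values (TMM), all 9 were fitted together by group with the robust quasi-likelihood test, with Benjamini-Hochberg adjustment over all genes in each comparison, with a threshold of 0.05. CPM values use the scaled library sizes. The procedure was run on simulated counts with the same spread setting for every gene and no letter effect. Its planted changes were larger than that of Ifnar2 between the sorted groups. That run therefore does not bear on pairing or on differences as small as these. Chi-square tests over genes between replicates of a group gave 17.6 to 61.2 per degree of freedom, so none was a library deposited again.

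Same-letter residuals correlated at 0.402, 0.339 and 0.459 (letters B, C and D) between MitoPositive and MitoNegative and at 0.213, 0.153 and 0.111 between MitoNegative and monoculture. Both are over 0.1, the threshold set for reading the letters as pairs. Between MitoPositive and monoculture the correlations were 0.248, 0.0521 and 0.163. The main fit nevertheless had groups only and no letter term, so its calls ignore any pairing. One alternative had the letter as a blocking factor. Others were DESeq2 (1.42.0) size factors and test, limma voom (3.58.1), total counts as the scale, no filter, fits of 2 groups, and leaving out each library. Leaving out all of letter B, and the list counts under every alternative, were chosen after seeing the data.

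The 9 genes and the lists were chosen with earlier results of these data known. Besides the 9, genes named are pathway genes taken always (Ifng, Il10ra, Il10rb, Jak2, Jak3, Stat3, Irf1, Irf7, Socs3, Cish and Usp18), up to 3 called genes of each list and comparison by size of change with a mean log2 CPM of at least 0, called neighbours of the receptor cluster within 200 kb, and the nearest profile of each of the 9. Not all genes that this rule takes are printed, and 1 of those taken always is not reported here. Ifit2, Gm21970, 1700084C06Rik, Rnf31, Col1a2, Col3a1, Thbs1, Cd68, Gzma, Eomes, Ighm and Parp9 were named after their values were seen. Promoters are from RefSeq, GRCm38.p6.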

Additional observations from a re-analysis of the deposited data

How the results depend on the processing

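Against monoculture, the counts of genes called and of the 9 genes called stayed within 1.5 times the main count in every alternative, though some fell. For MitoPositive 5484 to 6695 genes were called with 1 library left out, against 6637 with all, and 5 to 7 of the 9 pathway genes; for MitoNegative it was 4921 to 6037 genes, against 6110 with all, and 7 to 8 of the 9. Without all of letter B, 4671 genes and 5 of the 9 were called for MitoPositive and 4228 genes and 5 of the 9 for MitoNegative. MitoPositive against MitoNegative depended on the fit. Beside 26 genes called, 65 were called in a fit of the 2 groups, 15 with DESeq2 size factors, 14 with total counts, 418 by DESeq2, 68 by limma voom, 171 with no filter on low counts, 367 with the replicate block and 2810 with the block in a fit of the 2 groups; leaving libraries out gave 0 to 120. Of the 9 genes 1 was called, and 0 with DESeq2 size factors or total counts, 2 with the replicate block and 7 (2 higher) with the block in 2 groups; leaving libraries out gave 0 to 1. Ifnar2 was called in 6 of 8 other settings and in 2 of 9 fits with 1 library left out. Of the ISGF3 list 1 gene was called with the block and 23 with the block in 2 groups, and of the genes activated by interferon gamma 1 and 6. These stand beside 2.34% and 18.2% of all genes called in the same fits. The cause of these differences was not tested. With 1 library left out, 18 to 24 genes of the ISGF3 list were called in MitoPositive against monoculture and 23 to 25 in MitoNegative against monoculture; the 18 came without monoculture B, C or D. Over the values of single named genes, 720 of 776 kept their direction and side of the threshold in 8 other settings and 882 of 970 with libraries left out. Each value that changed sign was not called. With total counts Il10rb was 0.0096 in MitoPositive minus monoculture. With libraries left out, the range in MitoPositive minus monoculture was -0.073 to 0.010 for Il10rb, -0.12 to 0.028 for Irf1, -0.0051 to 0.28 for Socs3 and -0.17 to 0.21 for Ifngr2. In MitoNegative minus monoculture it was -0.0026 to 0.085 for Il10rb, and in MitoPositive minus MitoNegative it was -0.12 to 0.076 for Jak3, -0.087 to 0.017 for Stat3 and -0.74 to 0.086 for Usp18. Another scaling moved the median over all genes by at most 0.034 on the log2 scale. Of the 9 genes Ifngr2 had the fewest counts, 525 in its lowest library.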
